A study of Mus musculus with 4 samples.

Results

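The cell cycle genes analyzed here are 49 genes chosen by name for the phase in which their products act, of 55356 genes in the table. They comprise 12 regulators of G1 and of the G1/S transition, 13 genes of DNA replication and S phase, and 24 genes of G2 and mitosis (G2/M). The RNA came from macrophages grown from bone marrow of *MK2*-KO mice, which lack the kinase MK2 (*Mapkapk2*), and immortalized. Retroviral transduction had given them an empty vector with *GFP* (i*MK2*-KO +*GFP*, hereafter +*GFP* cells) or *MK2* (i*MK2*-KO +*MK2*, hereafter +*MK2* cells), and positive cells had been sorted by their GFP signal. In either line, 1 library stands for untreated (UT) cells and 1 for cells given IL-1α (5 ng/mL) for 1 h. The labels call the second line wild type. Both lines thus share the *MK2* deletion and the immortalization, whose method is not given in the sources used here, and each genotype is a single transduced line.

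With 1 library for each of the 4 conditions, no difference could be tested against the spread between cultures, and an effect of MK2 and any other difference between the 2 lines cannot be told apart. The values are normalized counts, that is, read counts divided by a size factor for each library, as deposited. They summed to between 24891906 and 25733071 per library. In place of a test, each log2 ratio between libraries (after adding 1 to each value) is given with an exact 95% Clopper-Pearson interval that treats the values as read counts. A gene is called higher or lower beyond counting error where this interval excludes 0. Where 2 values or ratios follow each other, the first is that of UT and the second that of IL-1α-treated cells. Intervals and floors cover counting error only. Each count of cell cycle genes is set beside the share among the 12483 genes whose mean over the libraries was at least 10.

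The cell cycle is driven by cyclin-dependent kinases (CDKs) that are switched on by cyclins. D-type cyclins with CDK4 or CDK6, and E-type cyclins with CDK2, phosphorylate the retinoblastoma protein RB1, which releases E2F transcription factors and with them the genes of S phase. Origins of replication are licensed in G1 by CDC6, CDT1 and the MCM helicase. In G2 the transcription factors B-MYB and FOXM1, working with the MuvB core of the DREAM complex, turn on the mitotic genes, and CDK1 with cyclin B then drives the cell into mitosis. Most macrophages of adult tissue divide rarely, whereas immortalized macrophages grow continuously in culture.

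In all 4 libraries the genes of each phase were expressed. Of the 49 genes, 48 had a mean of at least 10, and the same 48 had a mean of at least 300. *Ccnd2* was the exception. The 49 genes together took 0.742% (UT) and 0.743% (IL-1α) of the normalized counts in +*GFP* cells, and 0.771% and 0.763% in +*MK2* cells. The 24 G2/M genes summed to 97720 (UT) and 101880 (IL-1α) in +*GFP* cells and to 99106 (UT) and 99591 (IL-1α) in +*MK2* cells. For these genes the log2 ratio of the sums of +*GFP* to +*MK2* cells was −0.02 in UT cells and 0.03 after IL-1α. The 13 replication genes summed to 61532 and 63548 in +*GFP* cells and to 64915 and 64905 in +*MK2* cells. The 12 G1 and G1/S regulators summed to 26020 and 25711 in +*GFP* cells and to 27908 and 26986 in +*MK2* cells. The sums of the lines thus lay close together in each phase, with the widest gap in the G1 and G1/S regulators of UT cells (log2 ratio −0.10). In bulk RNA, fewer cells in a phase and less of a transcript per cell cannot be told apart.

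**Figure D1:**
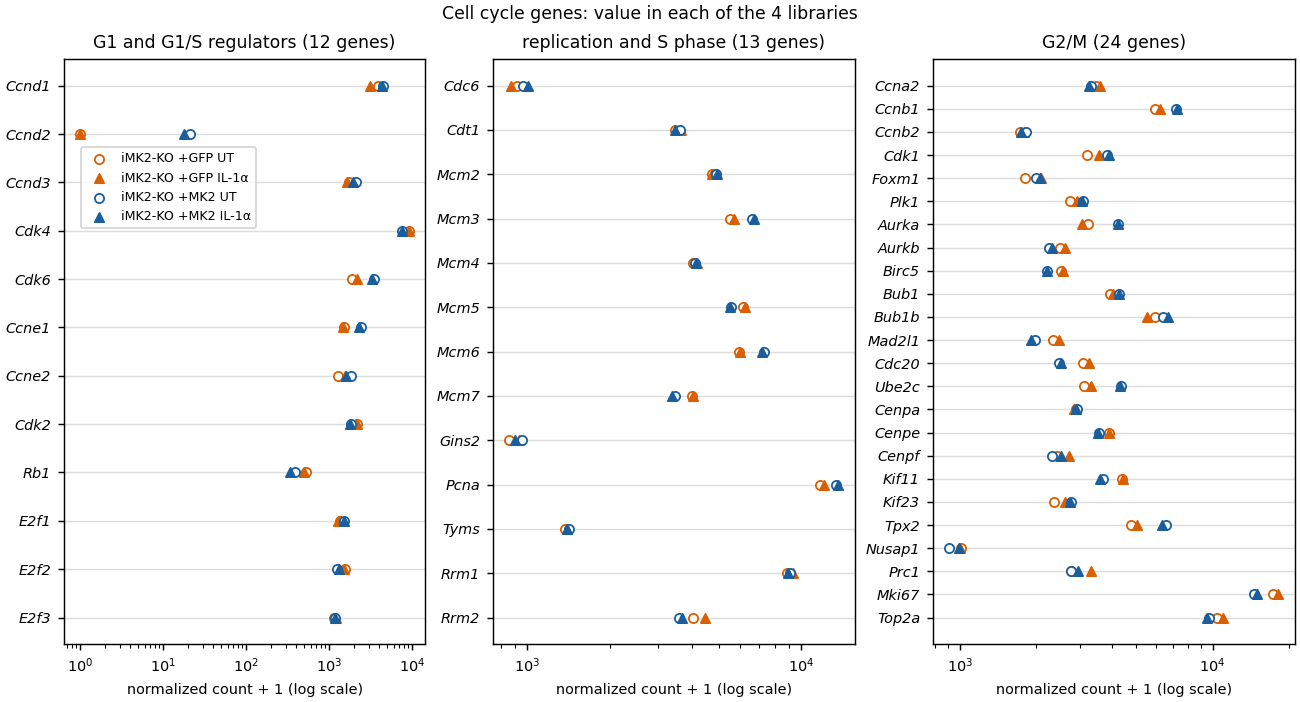
Normalized counts plus 1 (horizontal log axis, with a range of its own in each panel) of the 49 cell cycle genes in the 4 libraries, by phase. Orange stands for +*GFP* and blue for +*MK2* cells, open circles for UT and filled triangles for IL-1α. *Ccnd2*, at 0 in both orange libraries and at 20 and 17 in the blue ones, stands apart from the rest.

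The labels name the cells and the treatment. *Mapkapk2* itself was at 561 (UT) and 1585 (IL-1α) normalized counts in +*GFP* cells and at 38357 and 38141 in +*MK2* cells, which follows the labels. *Nfkbia* went from 587 to 7794 with IL-1α in +*GFP* cells and from 480 to 815 in +*MK2* cells. Each of the 10 macrophage markers was found in all libraries, although *Cebpa*, a myeloid lineage factor, stood at 19 and 20 in +*GFP* and at 431 and 415 in +*MK2* cells. Of these 10 markers, 4 were at least 1.5-fold lower in +*GFP* cells (*Cebpa*, *Mertk*, *Adgre1* and *Fcgr1*) and 1 was higher (*Cd14*), both in UT and in IL-1α-treated cells. Of all genes, 10.3% (UT) and 11.2% (IL-1α) were lower to that degree, and 7.33% and 8.41% higher. The part of these marker differences between the lines in the results below was not tested. The 14 markers of fibroblasts, lymphocytes, neutrophils, epithelium and erythroid cells summed to 6, 8, 3 and 1 in the 4 libraries.

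First, the lines were compared in UT cells. No cell cycle gene was at least 1.5-fold higher in +*GFP* cells (0 of 48, against 7.33% of all genes), and 2 of 48 were at least 1.5-fold lower (*Cdk6* and *Ccne1*, against 10.3% of all genes). Among the 8472 genes whose mean reached 300, the floor that the 48 genes also pass, the shares were 3.16% and 4.62%. With the counting interval as the rule, 16 of 48 were higher (all genes 30.8%) and 20 of 48 lower (all genes 26.9%). By this rule, 37.6% of the genes whose mean reached 300 were higher and 29.3% lower. With *Gapdh* as the scaling gene, 14 of the 48 were higher and 27 lower. The median log2 ratio of the 48 genes was −0.05, beside 0.02 for all genes. The comparison of the IL-1α-treated libraries gave 0 genes at least 1.5-fold higher (all genes 8.41%) and again *Cdk6* and *Ccne1* at least 1.5-fold lower (all genes 11.2%), beside 4.53% and 4.79% of the genes whose mean reached 300. Beyond counting error, 20 of 48 were then higher (all genes 33.7%) and 17 of 48 lower (all genes 26.3%), or 12 and 23 when scaled to *Gapdh*. Of the genes whose mean reached 300, 41.5% were higher and 27.8% lower beyond counting error. The median of the 48 genes was 0.02 beside 0.03 for all genes, and −0.08 when scaled to *Gapdh*, which moved the median of all genes to −0.07.

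In both pairs of libraries, 19 of 48 ratios lay above 0 (all genes 41.8%) and 22 of 48 below 0 (all genes 34.8%). Beyond counting error in both, 15 of 48 genes were higher in +*GFP* cells (all genes 23.3%) and 15 of 48 were lower (all genes 19.3%). At least 1.5-fold in both, 0 of 48 were higher (all genes 4.48%) and 2 lower (all genes 6.74%). All genes here include those with means from 10 to 300, whereas each of the 48 reached 300. The 2 pairs come from the same 2 lines, so this repeats the comparison in treated cells and not in another line. Rescaling to equal totals, to a trimmed mean or to *Gapdh* changed the sign of no ratio larger than 0.08 in size.

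**Figure D2:**
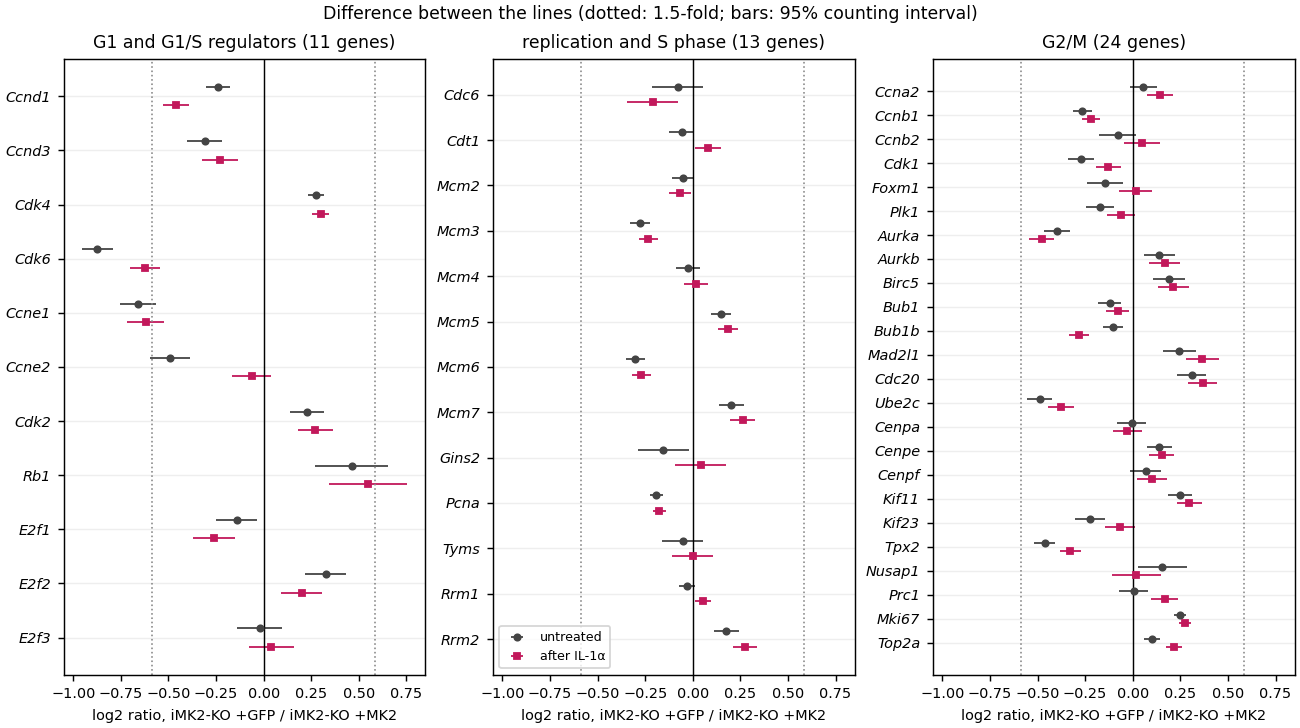
Log2 ratio of +*GFP* to +*MK2* cells for the 48 cell cycle genes with a mean of at least 10, by phase, in UT (grey circles) and IL-1α-treated cells (pink squares). Bars are 95% counting intervals and dotted lines mark 1.5-fold. *Cdk6* and *Ccne1* lie past the dotted line in both comparisons, and *Aurka*, *Ube2c* and *Tpx2* lie lowest among the G2/M genes.

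Among the D-type cyclins, which carry growth signals to CDK4 and CDK6, each member was lower in +*GFP* cells. *Ccnd1* (chr7:144929931-144939925 of GRCm38 in the GENCODE annotation, minus strand) had normalized counts of 3821 (UT) and 3114 (IL-1α) in +*GFP* cells and 4507 and 4283 in +*MK2* cells. Both +*GFP* libraries lay below both +*MK2* libraries, with a log2 ratio of −0.24 (95% interval −0.30 to −0.18) in UT cells and −0.46 (−0.53 to −0.39) after IL-1α. *Ccnd3* had 1711 and 1644 in +*GFP* cells and 2121 and 1927 in +*MK2* cells, giving −0.31 and −0.23. *Ccnd2* (chr6:127125162-127152193, minus strand) had 0 and 0 in +*GFP* cells and 20 and 17 in +*MK2* cells. Taking 3 counts per library as the limit that a count of 0 allows, *Ccnd2* was at least 6.67-fold lower in UT and at least 5.67-fold lower in IL-1α-treated +*GFP* cells. These folds take 20 and 17 as exact, and the counting intervals of the log2 ratio, which cover the error of both values, reached up to −2.30 and −2.04. Per kb of the longest coding transcript, *Ccnd1* had a level of 1022, 833, 1205 and 1145 in the order UT and IL-1α of +*GFP*, then of +*MK2* cells, and *Ccnd3* of 810, 778, 1004 and 912. The level of *Ccnd2* per kb, 3.16 and 2.69 in +*MK2* cells, was far below both, so *Ccnd1* and *Ccnd3* made up nearly all D-type cyclin mRNA in both lines.

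The kinases that these cyclins activate lay in opposite directions. *Cdk6* (chr5:3341485-3531008, plus strand) had 1872 and 2152 normalized counts in +*GFP* cells and 3431 and 3310 in +*MK2* cells. Its log2 ratio of −0.87 (−0.96 to −0.79) in UT cells was the lowest of the 48 genes, and after IL-1α it was −0.62 (−0.70 to −0.54). *Cdk4* (chr10:127063534-127067920, plus strand), its close relative, had 9061 and 9167 in +*GFP* cells and 7489 and 7449 in +*MK2* cells, with ratios of 0.27 (0.23 to 0.32) and 0.30 (0.26 to 0.34). Per kb, *Cdk4* had the far higher level in each library, with 4414, 4465, 3648 and 3628 against 162, 187, 298 and 287 for *Cdk6* in the order given above. The lower kinase in +*GFP* cells was thus also the less abundant one.

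In the E-type group, both cyclins were lower and their kinase CDK2 was higher in UT cells. *Ccne1* (chr7:38097984-38107534, minus strand) had 1520 and 1487 normalized counts in +*GFP* cells and 2403 and 2285 in +*MK2* cells, which gave −0.66 (−0.75 to −0.57) and −0.62 (−0.72 to −0.52). *Ccne2* (chr4:11191351-11204779, plus strand) had 1289 and 1539 in +*GFP* cells and 1811 and 1607 in +*MK2* cells. The gap between the lines in *Ccne2* was present in UT cells and nearly closed after IL-1α. Its ratio was −0.49 (−0.59 to −0.39) in UT cells, but −0.06 (−0.16 to 0.04) after IL-1α, where the interval included 0. *Cdk2* had 2138 and 2140 in +*GFP* cells and 1825 and 1772 in +*MK2* cells, with ratios of 0.23 and 0.27.

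Downstream of these kinases, *Rb1*, the brake that they phosphorylate, was the highest of the 48 genes in +*GFP* relative to +*MK2* cells in both comparisons. It had normalized counts of 532 (UT) and 491 (IL-1α) in +*GFP* and 386 and 336 in +*MK2* cells. The ratios were 0.46 (0.27 to 0.66) and 0.55 (0.34 to 0.75). The activating E2F factors did not move together. *E2f1* was lower (−0.14 and −0.26), *E2f2* was higher (0.33 and 0.20), and for *E2f3* both intervals included 0 (−0.02 and 0.04). In all, 4 of the 11 tested G1 and G1/S genes were higher beyond counting error in UT cells (*Cdk4*, *Cdk2*, *Rb1* and *E2f2*, all genes 30.8%) and 6 were lower (all genes 26.9%). Among the genes whose mean reached 300, the shares were 37.6% and 29.3%. The 11 G1 and G1/S genes had the widest range of ratios of the 3 phases, from −0.87 to 0.46.

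The 13 replication genes lay closer together, between −0.30 and 0.20 in UT cells and between −0.27 and 0.27 after IL-1α, with medians of −0.05 and 0.02. The 6 subunits of the MCM2-7 helicase, which unwinds DNA as a ring with 1 copy of each, were split. *Mcm3* had 5482 and 5708 normalized counts in +*GFP* cells and 6640 and 6710 in +*MK2* cells, with ratios of −0.28 (−0.33 to −0.22) and −0.23 (−0.28 to −0.18). *Mcm6* was lower to a similar degree (−0.30 and −0.27). *Mcm5* had 6142 and 6257 in +*GFP* cells and 5547 and 5495 in +*MK2* cells, with ratios of 0.15 (0.09 to 0.20) and 0.19 (0.13 to 0.24), and *Mcm7* was higher as well (0.20 and 0.26). For these 4 subunits, both libraries of one line lay above both of the other. *Mcm2* and *Mcm4* lay within 0.07 of 0 in both comparisons.

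The licensing factors *Cdc6* and *Cdt1* had UT ratios of −0.08 and −0.06, both with intervals that included 0. After IL-1α, *Cdc6* was lower (−0.21) and *Cdt1* higher (0.08), the latter with a changed sign when scaled to *Gapdh*. *Pcna*, the sliding clamp that holds the polymerase on DNA, was the most abundant of the 49 genes per kb in each library, at 7741 and 7971 in +*GFP* cells and 8836 and 9002 in +*MK2* cells. Its ratios of normalized counts were −0.19 (−0.23 to −0.16) and −0.18 (−0.21 to −0.14). Of the enzymes that make DNA precursors, *Rrm2*, the S-phase subunit of ribonucleotide reductase, was higher (0.18 and 0.27), whereas the ratios of *Rrm1* (−0.03 and 0.05) and of *Tyms*, thymidylate synthase (−0.05 and 0.00), stayed near 0. *Gins2*, part of the active helicase, stood at −0.15 in UT cells and at 0.04 after IL-1α, where its interval included 0.

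The 24 G2/M genes were centered on 0, with medians of 0.00 in UT cells and 0.03 after IL-1α. Beyond counting error, 9 were higher and 10 lower in UT cells (all genes 30.8% and 26.9%), and 11 higher and 7 lower after IL-1α (all genes 33.7% and 26.3%). Among the genes whose mean reached 300, the shares were 37.6% and 29.3% in UT cells and 41.5% and 27.8% after IL-1α. The lowest G2/M gene in UT cells was *Ube2c*, which encodes the ubiquitin-conjugating enzyme of the anaphase-promoting complex (APC/C). It had 3091 and 3302 normalized counts in +*GFP* cells and 4338 and 4287 in +*MK2* cells, with ratios of −0.49 (−0.56 to −0.42) and −0.38 (−0.44 to −0.31). The highest in both comparisons was *Cdc20*, an activator of the same complex, with 3074 and 3238 in +*GFP* cells, 2480 and 2509 in +*MK2* cells, and ratios of 0.31 (0.23 to 0.39) and 0.37 (0.29 to 0.44). Both libraries of +*GFP* cells thus lay below those of +*MK2* cells for one partner and above them for the other.

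Of the spindle checkpoint genes, which delay anaphase until chromosomes are attached, *Mad2l1* was higher (0.24 and 0.37), while *Bub1* (−0.12 and −0.08) and *Bub1b* (−0.10 and −0.28) were lower. Aurora A kinase and TPX2, the spindle protein that activates it, were both lower in +*GFP* cells. *Aurka* had 3223 and 3037 normalized counts in +*GFP* cells and 4244 and 4231 in +*MK2* cells, with ratios of −0.40 (−0.46 to −0.33) and −0.48 (−0.55 to −0.41). *Tpx2* had 4766 and 5021 in +*GFP* cells and 6565 and 6298 in +*MK2* cells, with ratios of −0.46 (−0.52 to −0.41) and −0.33 (−0.38 to −0.27). Aurora B, which works in the chromosomal passenger complex with survivin (*Birc5*), lay on the other side. *Aurkb* had 2494 and 2600 in +*GFP* cells and 2264 and 2315 in +*MK2* cells (0.14 and 0.17), and *Birc5* had 2526 and 2573 against 2215 and 2219 (0.19 and 0.21). The other 2 subunits of that complex, named here after their values were seen, stood at −0.06 and −0.04 (*Incenp*) and at 0.11 and 0.16 (*Cdca8*).

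*Cdk1*, the kinase of mitotic entry, had 3181 and 3571 normalized counts in +*GFP* cells and 3837 and 3903 in +*MK2* cells, with ratios of −0.27 (−0.34 to −0.20) and −0.13 (−0.19 to −0.06). Its cyclin *Ccnb1* was lower as well (−0.27 and −0.22). Both partners of the kinase that triggers mitosis thus lay below 0 in +*GFP* cells. *Ccna2*, the cyclin of S phase and G2 (0.06 and 0.14), and *Ccnb2*, the second mitotic cyclin (−0.08 and 0.05), lay nearer 0, and of their 4 intervals only that of *Ccna2* after IL-1α excluded 0. *Foxm1*, the transcription factor of the G2/M program, stood at −0.15 in UT cells and at 0.02 after IL-1α, and *Plk1*, a kinase of mitotic entry and exit, at −0.17 and −0.06.

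Among spindle proteins, *Kif11*, the motor that pushes the poles apart, was higher (0.25 and 0.30). *Kif23*, a motor of cytokinesis, was at −0.22 and −0.07. The microtubule-binding genes *Nusap1* and *Prc1* changed place, at 0.16 and 0.00 in UT and at 0.02 and 0.17 in IL-1α-treated cells. At the centromere, *Cenpe*, a kinetochore motor, was higher (0.14 and 0.15), and *Cenpa*, the histone variant that marks centromeres, stood at −0.01 and −0.03. *Cenpf*, a kinetochore protein, lay at 0.07 and 0.10.

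The proliferation antigen *Mki67* and the topoisomerase *Top2a*, which are widely read as marks of dividing cells, were both higher in +*GFP* cells. *Mki67* had normalized counts of 17370 (UT) and 18152 (IL-1α) in +*GFP* cells and 14620 and 15001 in +*MK2* cells, with ratios of 0.25 (0.22 to 0.28) and 0.28 (0.24 to 0.31). *Top2a* had 10402 and 11020 in +*GFP* cells and 9697 and 9480 in +*MK2* cells, with ratios of 0.10 (0.06 to 0.14) and 0.22 (0.18 to 0.26). *Pcna*, often used in the same way, was lower, so these 3 genes did not point in 1 direction.

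Between the UT lines, the 5th to 95th percentiles of the log2 ratio ran from −0.49 to 0.30 for the 48 genes, from −0.57 to 0.48 for the genes whose mean reached 300 and from −1.03 to 0.77 for all genes.

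**Figure D3:**
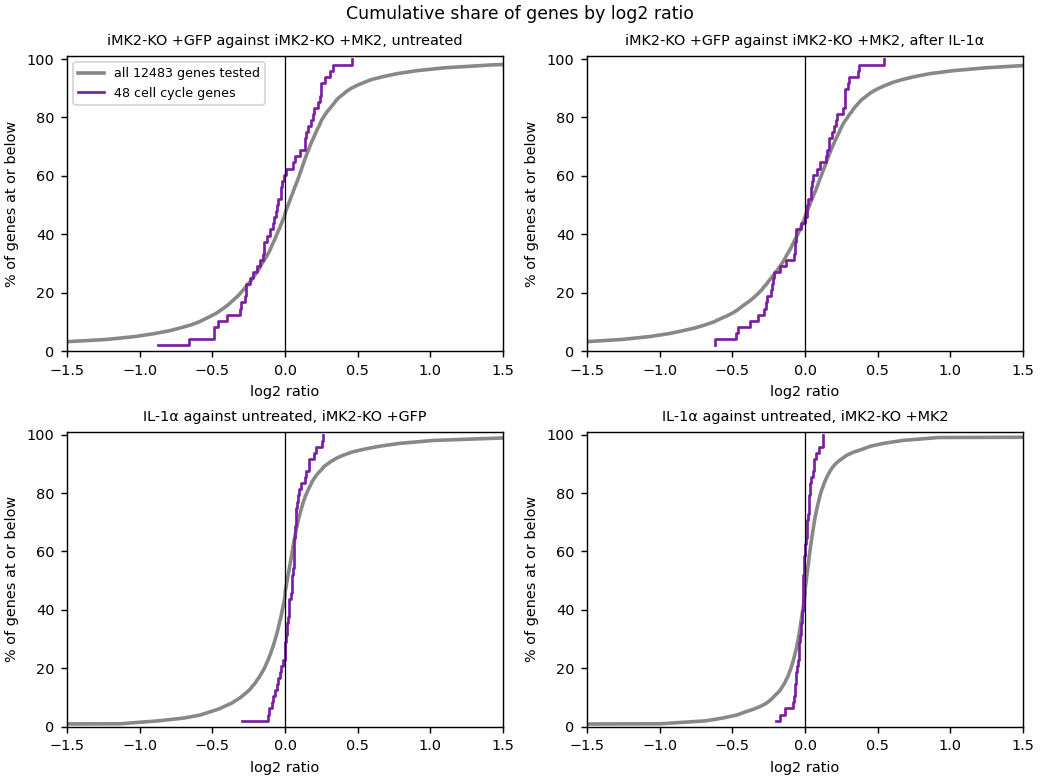
Cumulative share of genes (vertical axis, percent) at or below each log2 ratio (horizontal axis, drawn from −1.5 to 1.5) for the 48 cell cycle genes (purple) and all 12483 genes tested (grey), in each of the 4 comparisons. The purple steps run from −0.87 to 0.46 between the UT lines and from −0.20 to 0.13 for the IL-1α response of +*MK2* cells, and the grey curves include genes with means down to 10, below the 300 that every purple gene reaches.

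Second, the response to IL-1α was examined within each line. After 1 h, 0 of 48 cell cycle genes were at least 1.5-fold higher (all genes 4.7%) or at least 1.5-fold lower (all genes 4.29%) in +*GFP* cells, and 0 of 48 were higher (all genes 2.72%) or lower (all genes 2.92%) to that degree in +*MK2* cells. Among the genes whose mean reached 300, the shares were 1.96% higher and 0.472% lower in +*GFP* cells and 0.189% and 0.177% in +*MK2* cells. In +*GFP* cells 19 of 48 were higher beyond counting error (all genes 20%) and 3 of 48 lower (all genes 12.3%). These counts changed to 9 and 5 with libraries scaled to equal totals and to 8 and 5 with *Gapdh*. Of the 48 genes, 37 had a ratio above 0 (77.1%, beside 53.8% of all genes), among them 12 of 13 replication genes and 20 of 24 G2/M genes, but 5 of 11 G1 and G1/S genes. The genes whose mean reached 300 gave 5018 of 8472 above 0. These numbers above 0 depend on the scale of the libraries and were not counted again with equal totals. *Pcna*, at 0.0422, changed sign with equal totals. *Mcm2* (0.0015), *Mcm6* (0.0121), *Mcm7* (0.0187), *Mcm5* (0.0268) and *Tyms* (0.0272) lay nearer 0 than *Pcna* before rescaling. The median of the 48 was 0.05 beside 0.01 for all genes. Scaled to equal totals, the median was 0.01 beside −0.03 for all genes, so the members lay above the bulk of genes by a few hundredths on the log2 scale under either scaling. Of the genes whose mean reached 300, 25.5% were higher and 13% lower beyond counting error, with a median of 0.03.

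In +*MK2* cells 4 of 48 were higher beyond counting error (all genes 11.4%) and 4 of 48 lower (all genes 8.23%), or 3 and 7 with libraries scaled to equal totals. Of the genes whose mean reached 300, 13.9% were higher and 8.83% lower. Here 20 of 48 cell cycle genes had a ratio above 0 (41.7%, beside 53.0% of all genes), and the median was −0.01 beside 0.01 for all genes. The genes whose mean reached 300 gave 4733 of 8472 above 0. The responses of the 2 lines differed by a median of 0.05 over the 48 genes, with 39 of 48 larger in +*GFP* cells. The median difference was 0.01 for all genes, of which 6651 of 12483 were larger in +*GFP* cells. It was 0.02 for the genes whose mean reached 300, of which 4756 of 8472 were larger in +*GFP* cells. With equal totals the 48 genes gave a median difference of 0.02 and 32 larger in +*GFP* cells, and with *Gapdh* 0.004 and 26. With 1 library per condition, this difference between the responses was not tested.

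**Figure D4:**
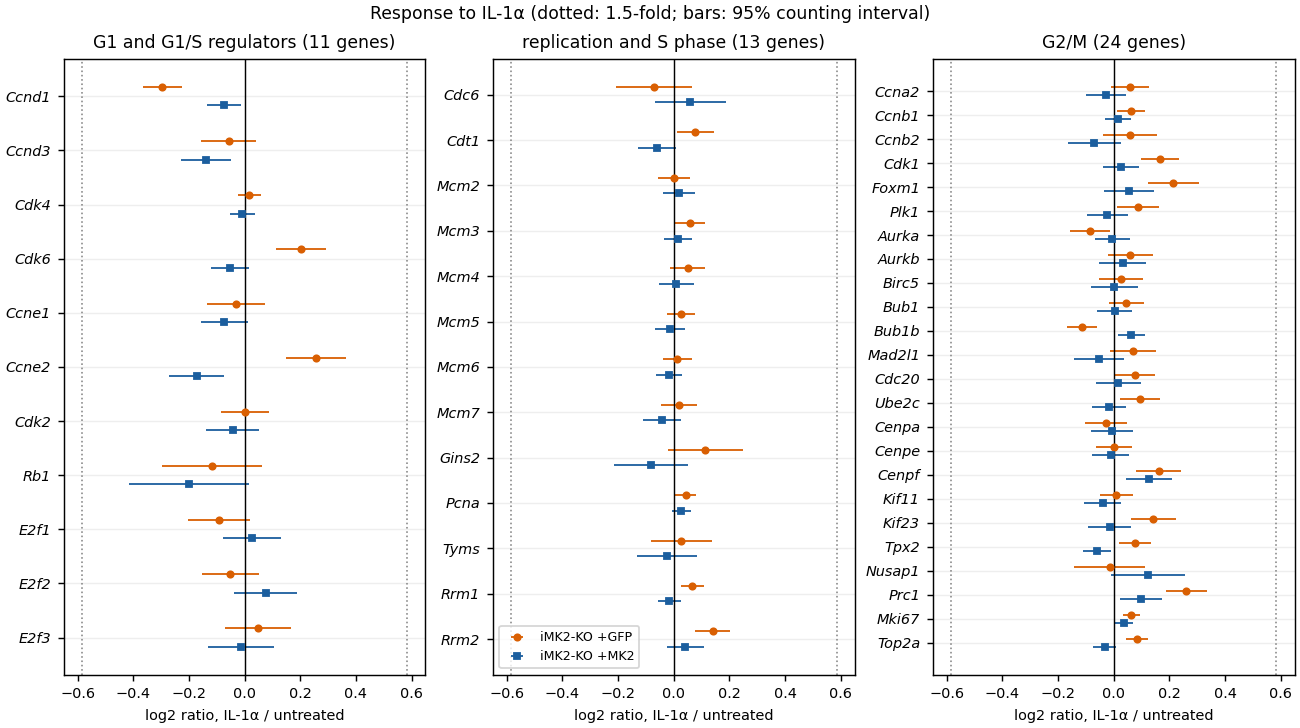
Log2 ratio of IL-1α-treated to UT cells for the 48 cell cycle genes, by phase, in +*GFP* (orange circles) and +*MK2* cells (blue squares). Bars are 95% counting intervals and dotted lines mark 1.5-fold. All points lie inside the dotted lines, between −0.30 (*Ccnd1*) and 0.26 (*Prc1*), and most orange points lie to the right of their blue partners.

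*Ccnd1* was lower after IL-1α in both lines. It went from 3821 to 3114 in +*GFP* cells, a log2 ratio of −0.30 (−0.36 to −0.23), and from 4507 to 4283 in +*MK2* cells, a ratio of −0.07 (−0.13 to −0.01). The first of these was the lowest of all 48 responses in either line. In +*GFP* cells *Aurka* (−0.09) and *Bub1b* (−0.11) were lower too. In +*MK2* cells *Ccnd3* (−0.14), *Ccne2* (−0.17) and *Tpx2* (−0.06) were lower. With reads taken as 0.5 times the values, the 4 lower genes of +*MK2* cells, *Ccnd1* among them, became 2.

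The highest responses in +*GFP* cells belonged to *Prc1*, a microtubule bundler of the central spindle, and to *Ccne2*. *Prc1* went from 2754 to 3299 in +*GFP* cells, a ratio of 0.26 (0.19 to 0.33), and from 2745 to 2937 in +*MK2* cells, a ratio of 0.10 (0.02 to 0.17). *Ccne2* went from 1289 to 1539 in +*GFP* cells (0.26) and from 1811 to 1607 in +*MK2* cells (−0.17), which brought the lines to nearly the same value. *Foxm1* went from 1805 to 2094 in +*GFP* cells (0.21) and from 1996 to 2072 in +*MK2* cells (0.05). *Cdk6* stood 0.20 higher after IL-1α in +*GFP* cells and *Cdk1* 0.17 higher, whereas in +*MK2* cells both intervals included 0 (−0.05 and 0.02). The gap between the lines in *Cdk6*, *Ccne2*, *Foxm1* and *Cdk1* was therefore smaller after IL-1α, and that in *Ccnd1* and *Bub1b* larger. In +*MK2* cells 4 genes were higher beyond counting error (*Bub1b*, *Cenpf*, *Prc1* and *Mki67*), and 3 of them, all but *Bub1b*, were also higher in +*GFP* cells. These 4 were of the 24 G2/M genes (16.7%, beside 11.4% of all genes and 13.9% of those whose mean reached 300). With reads taken as 0.5 times the values, the 4 became 1.

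Other genes of the same pathways came from lists chosen by name, which do not hold every member of a pathway. In UT +*GFP* cells, 7.33% of all genes were at least 1.5-fold higher and 10.3% at least 1.5-fold lower. Of 30 further replication genes, 0 were at least 1.5-fold higher and 1 was at least 1.5-fold lower in UT +*GFP* cells, with a median of 0.04. That gene was *Gins4*, a subunit of the active helicase together with *Gins2*, with 576 and 610 normalized counts in +*GFP* cells and 1012 and 977 in +*MK2* cells (−0.81 and −0.68). Of 43 further G2/M genes, 0 were at least 1.5-fold higher and 1 lower in UT cells, and the median was −0.05. The lower one was *Ckap2*, which encodes a microtubule-associated protein, at −0.80 in UT cells and −0.52, within 1.5-fold, after IL-1α. Of 15 pocket proteins, further E2F factors and DREAM subunits, 2 were at least 1.5-fold higher and 1 lower in UT cells. The higher ones encode repressors of E2F targets, namely *E2f6* with 2077 and 1951 in +*GFP* cells against 1229 and 1224 in +*MK2* cells (0.76 and 0.67), and *E2f7* with 87 and 109 against 49 and 59 (0.82 and 0.87). The lower one in this list was *Lin9*, a MuvB subunit, with 471 and 646 against 757 and 804 (−0.68 in UT cells and −0.32, within 1.5-fold, after IL-1α). After IL-1α *Tfdp2*, a partner of E2F proteins, was the lowest of these lists (−0.76). In +*GFP* cells, the log2 responses to IL-1α of these 3 lists ranged from −0.42 (*Gins3*, 0.22 in +*MK2* cells) to 0.51 (*Orc1*, the largest subunit of the origin recognition complex, 0.30 in +*MK2* cells).

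Of the 7 CDK inhibitors, the brakes on these kinases, 5 had a mean of at least 10. In UT +*GFP* cells 2 of the 5 were at least 1.5-fold lower (all genes 10.3%) and 0 higher (all genes 7.33%). After IL-1α, 3 of the 5 were lower to that degree (all genes 11.2%) and 1 higher (all genes 8.41%). *Cdkn1a*, which encodes p21, had normalized counts of 2612 (UT) and 3157 (IL-1α) in +*GFP* cells and 5065 and 5170 in +*MK2* cells, with ratios of −0.96 (−1.02 to −0.89) and −0.71 (−0.78 to −0.65). *Cdkn2a*, which encodes p16 and ARF, had 0 and 1 in +*GFP* cells and 839 and 742 in +*MK2* cells. In UT +*GFP* cells it was at least 280-fold lower against the floor of 3 counts, a fold that takes 839 as exact. The counting interval of the log2 ratio, which covers the error of both values and allows a smaller fold, reached up to −7.83. After IL-1α, *Cdkn2a* had a log2 ratio of −8.54 (−14.84 to −7.05). Its neighbor *Cdkn2b*, which encodes p15, had 0 and 0 against 19 and 15. *Cdkn1b*, which encodes p27, lay the other way, with 625 and 638 in +*GFP* cells and 445 and 421 in +*MK2* cells (0.49 and 0.60). *Cdkn2c* had 193 and 163 against 249 and 249 (−0.37 and −0.61), *Cdkn2d* had 404 and 362 against 357 and 390, and *Cdkn1c* had at most 4 counts in any library. These values stand beside log2 ratios of the G2/M sums of −0.02 (UT) and 0.03 (IL-1α), and their part in the differences of single cell cycle genes was not tested.

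**Figure D5:**
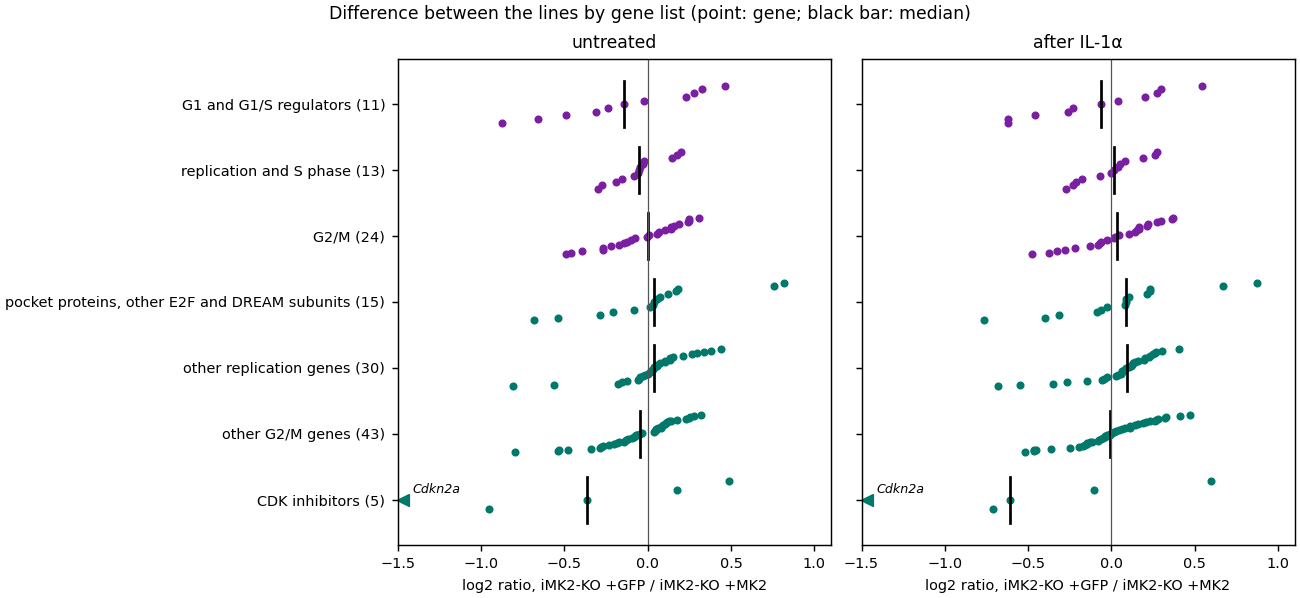
Log2 ratio of +*GFP* to +*MK2* cells for each gene with a mean of at least 10 (points) and the median (black bars), by list, in UT (left) and IL-1α-treated cells (right). Purple lists are the 48 cell cycle genes by phase and green lists are other cell cycle genes, with the number of genes in parentheses. The medians of the purple lists lie between −0.14 and 0.03, and an arrowhead stands for *Cdkn2a*, which lies beyond the axis.

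Finally, promoter sequences from RefSeq (GRCm38.p6, from 250 bases before to 50 bases after the start of the gene) were searched, since the phases differ in their known promoter elements and genes of 1 phase lay on both sides of 0. A promoter was held for 39 of the 49 genes. Searched on both strands were the cell cycle homology region (CHR, TTTGAA), which the MuvB core binds, the CCAAT box (CCAAT), which NF-Y binds, and 4 forms of the E2F site (TTTGGCGC, TTTCCCGC, TTTCGCGC and TTTGCCGC). Matches were allowed to overlap. A CHR stood in 14 of 20 G2/M promoters (70%), in 1 of 11 replication promoters and in 2 of 8 G1 and G1/S promoters, beside 20.2% of the promoters of 27025 genes. Each of those 14 G2/M promoters also held a CCAAT box, a pair found in 8.97% of all genes. The CCAAT box stood in 17 of 20 G2/M, 8 of 11 replication and 4 of 8 G1 and G1/S promoters, beside 41.1% of all genes. An E2F site stood in 6 of 11 replication promoters, 3 of 8 G1 and G1/S promoters and 1 of 20 G2/M promoters, beside 2.6% of all genes. A match is a description of the letters and does not show that a factor binds there.

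The 14 G2/M genes with a CHR had a median log2 ratio between the UT lines of −0.04 and ranged from −0.49 to 0.31, which includes both ends of all 24 G2/M genes. The 6 without had a median of 0.15 and ranged from −0.27 to 0.24. After IL-1α, the medians were 0.01 and 0.08. The members at the ends, *Cdc20* and *Ube2c*, both with a CHR, are shown, together with *Cdk1*, which held all 3 elements. The regions are chr4:118437314-118437593 (minus strand), chr2:164769679-164769958 (plus strand) and chr10:69352883-69353162 (minus strand), each from 250 bases before to 30 bases after the start, 5′ to 3′, with the matches in capitals.

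Cdc20: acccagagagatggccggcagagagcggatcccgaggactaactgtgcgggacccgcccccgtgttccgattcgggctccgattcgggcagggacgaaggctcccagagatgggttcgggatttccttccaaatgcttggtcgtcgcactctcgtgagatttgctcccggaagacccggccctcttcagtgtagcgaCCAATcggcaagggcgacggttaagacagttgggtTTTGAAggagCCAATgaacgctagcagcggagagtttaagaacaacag

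Ube2c: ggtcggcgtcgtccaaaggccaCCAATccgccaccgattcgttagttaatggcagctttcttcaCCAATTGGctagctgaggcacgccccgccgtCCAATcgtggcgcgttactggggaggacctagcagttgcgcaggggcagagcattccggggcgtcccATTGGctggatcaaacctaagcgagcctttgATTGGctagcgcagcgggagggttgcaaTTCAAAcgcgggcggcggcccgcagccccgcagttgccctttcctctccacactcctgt

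Cdk1: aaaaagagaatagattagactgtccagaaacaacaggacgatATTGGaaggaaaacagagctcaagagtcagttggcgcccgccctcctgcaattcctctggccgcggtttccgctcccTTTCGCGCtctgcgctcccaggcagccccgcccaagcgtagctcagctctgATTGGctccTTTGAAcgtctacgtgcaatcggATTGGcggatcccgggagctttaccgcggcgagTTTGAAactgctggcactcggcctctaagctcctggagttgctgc

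In *Cdc20*, higher in +*GFP* cells, the CHR begins 18 bases before the start, between CCAAT boxes at −53 and −8. In *Ube2c*, lower in +*GFP* cells, it lies on the opposite strand at −29, with 6 matches to the CCAAT box upstream of it, of which a pair overlaps. In *Cdk1*, also lower, the CHR occurs at −71 and at −15, with an E2F site at −131. The split subunits of the MCM helicase offered the same contrast for the E2F site. *Mcm3* (chr1:20820283-20820562, minus strand), lower in +*GFP* cells, and *Mcm5* (chr8:75109259-75109538, plus strand), higher in +*GFP* cells, both held an E2F site, in *Mcm5* as a pair of overlapping matches, and 3 CCAAT boxes.

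Mcm3: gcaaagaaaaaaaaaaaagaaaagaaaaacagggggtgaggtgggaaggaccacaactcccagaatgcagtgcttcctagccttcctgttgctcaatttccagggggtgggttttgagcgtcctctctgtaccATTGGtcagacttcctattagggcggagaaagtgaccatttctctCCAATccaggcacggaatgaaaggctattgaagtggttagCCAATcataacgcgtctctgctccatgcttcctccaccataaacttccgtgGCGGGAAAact

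Mcm5: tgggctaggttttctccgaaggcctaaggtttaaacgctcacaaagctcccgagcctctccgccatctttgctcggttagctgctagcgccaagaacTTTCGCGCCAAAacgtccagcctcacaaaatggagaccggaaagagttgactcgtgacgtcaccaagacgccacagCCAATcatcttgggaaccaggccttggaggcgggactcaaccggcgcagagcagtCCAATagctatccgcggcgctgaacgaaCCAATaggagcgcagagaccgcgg

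The 2 members past 1.5-fold are shown for comparison. No match to these letters was found in the windows of *Ccne1* (chr7:38107461-38107740, minus strand) or *Cdk6* (chr5:3343643-3343922, plus strand), which says only that these exact letters are not there. The *Cdk6* window follows the RefSeq start, which lies downstream of the GENCODE start of the span given above (chr5:3341485-3531008). The bases before that GENCODE start were not searched.

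Ccne1: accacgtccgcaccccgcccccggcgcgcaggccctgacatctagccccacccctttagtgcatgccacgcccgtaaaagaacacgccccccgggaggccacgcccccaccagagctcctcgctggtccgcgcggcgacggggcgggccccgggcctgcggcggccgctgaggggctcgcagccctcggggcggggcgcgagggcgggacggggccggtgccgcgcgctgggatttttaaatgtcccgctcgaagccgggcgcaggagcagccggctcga

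Cdk6: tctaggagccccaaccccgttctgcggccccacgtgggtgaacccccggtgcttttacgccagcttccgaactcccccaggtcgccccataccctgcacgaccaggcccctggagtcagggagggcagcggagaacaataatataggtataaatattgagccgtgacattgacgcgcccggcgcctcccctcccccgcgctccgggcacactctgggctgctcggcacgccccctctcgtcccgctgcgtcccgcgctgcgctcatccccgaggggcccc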

How the data were processed

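Libraries of UT and IL-1α-treated macrophages of the +*GFP* and +*MK2* lines, 1 per condition, were grouped by their labels. The study's methods describe 1 read per fragment after ribo-depletion, whereas the labels describe poly(A) selection and paired reads. The authors deposited 1 table of scores for 55356 genes, which are DESeq2 normalized counts rounded to whole numbers, and column names point to salmon. The submitters' processing notes name GRCm38. The deposited positions matched the GENCODE M21 annotation of that build for 1 of 49 members, so positions here are those of GENCODE M21 (GRCm38), and promoters are from RefSeq. As the values are normalized, no count model was applied.

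Log2 ratios, after adding a pseudocount of 1 to each value, were taken for the 12483 genes with a mean of at least 10, with exact 95% Clopper-Pearson intervals of the share of both libraries' values (Python 3.11.15, scipy 1.17.1). A fold of 1.5 or an interval that excludes 0 served as the rule for counts. Only for folds given as "at least" was a value of 0 set to a floor of 3, whereas log2 ratios used the pseudocount and intervals used the value of 0. The script was tested on simulated data. Depth per library was taken as the sum of the values. Reads behind each value may differ from it, so intervals were repeated with 0.5 and 1.2 times the values. Levels per kb used the longest coding transcript. Alternatives were scaling to equal totals, to a mean trimmed by 30% on each side and to *Gapdh*, pseudocounts of 0.5 and 5, other minimum values and folds of 1.2 and 2. The members and lists were chosen with earlier results of these data known. All 49 members and 7 CDK inhibitors could be named. From the other cell cycle lists, the 3 highest and 3 lowest ratios of each comparison could be named, together with the check genes.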

Additional observations from a re-analysis of the deposited data

Results flagged for a closer look

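For 3 of the 48 genes, the response to IL-1α lay in opposite directions in the 2 lines, with both counting intervals excluding 0. *Ccne2*, which encodes a cyclin of the G1/S transition, had a log2 ratio of 0.26 in +*GFP* cells and −0.17 in +*MK2* cells. *Bub1b*, a spindle checkpoint gene, had −0.11 in +*GFP* cells and 0.064 in +*MK2* cells. *Tpx2*, the activator of Aurora A, had 0.0752 in +*GFP* cells and −0.0599 in +*MK2* cells. The +*MK2* intervals of *Bub1b* (0.01 to 0.11) and *Tpx2* (−0.11 to −0.01) came close to 0. With reads taken as 0.5 times the values, the 4 higher and 4 lower genes of +*MK2* cells became 1 and 2. Calls this near 0 thus depend on the number of reads assumed. With 1 library per condition, the difference between the lines was not tested, and the spread between cultures is unknown.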

How the results depend on the processing

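No paired analysis was possible because each condition had 1 library and the columns carry no replicate numbers, and no library could be left out. Of 192 ratios (48 genes in 4 comparisons), the sign changed for 17 with equal totals, 11 with a trimmed mean and 21 with *Gapdh*, and the largest of these ratios was 0.08 in size. Of the ratios called beyond counting error, 1 changed sign with equal totals and 3 with *Gapdh*. The IL-1α response of *Pcna* in +*GFP* cells went from 0.0422 to −0.0012 with equal totals and to −0.003 with *Gapdh*. Between the IL-1α-treated lines, *Gapdh* scaling took *Cdt1* to −0.0219 and *Rrm1* to −0.0485. Pseudocounts of 0.5 and 5, no minimum value, a minimum of 50 and a minimum of 300, the last chosen after seeing the data, moved no ratio by more than 0.0053 and no count of cell cycle genes beyond 1.5 times.

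For the IL-1α response of +*GFP* cells, 19 higher and 3 lower became 9 and 5 with equal totals and 8 and 5 with *Gapdh*, and 11 were higher when reads were taken as 0.5 times the values. For +*MK2* cells, 4 higher and 4 lower became 7 lower with equal totals, and 1 higher and 2 lower with 0.5 times the reads. Between the IL-1α-treated lines, 20 higher became 12 with *Gapdh*, and the median of 0.02 became −0.0842. With a 2-fold rule, the count of 2 lower genes became 0 in UT cells, 0 after IL-1α and 0 in both. With a 1.2-fold rule, 4 were higher and 11 lower in UT cells, 8 higher and 8 lower after IL-1α, 3 higher and 6 lower in both, and 1 lower after IL-1α in +*GFP* cells. These changes follow from the shift in scale, the smaller number of reads or the other threshold.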
